A study of Mus musculus with 12 samples.

Results

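Primary neurons of the mouse entorhinal cortex (EC) that had received a Dek cDNA were compared with neurons that had received an empty vector, by RNA sequencing of 3 wells per group. The 6 libraries are a part of a series of 12, whose other 6 hold neurons with a Dek-silencing or a scrambled hairpin. Every gene that passed a filter on low counts was a member of the comparison: 14089 of 24100 genes in the deposited table, with 10011 genes not past the filter. The study used both viruses to ask how the level of Dek sets neuronal gene expression. For the cDNA it reported a modest number of changed genes at an adjusted p. Its pathway analysis of the cDNA therefore took genes at a nominal p.

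Neurons of both groups were prepared from C57Bl/6J embryos at embryonic day 17 and grown in Neurobasal medium with B27. At 7 days in vitro they received an adeno-associated virus of serotype AAV1 at 1e+10 viral genomes per ml, and RNA was collected 4 days later, with 200 ng per library. The overexpression virus, AAV1-hSyn1-mDEK-IRES-mCherry, carried the mouse Dek cDNA and the red fluorescent protein mCherry. The control virus, AAV1-hSyn1-mCherry-WPRE, carried mCherry alone and has a WPRE element, which stabilises transcripts, that the name of the Dek virus does not show. Both used the human synapsin 1 promoter, which is active in neurons, so expression from either virus is largely neuronal. The labels do not say whether wells of a group shared a dissection, and p-values therefore measure the spread between these wells.

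DEK is a chromatin protein that binds DNA with little sequence preference, associates with nucleosomes and serves as a chaperone for the histone variant H3.3. It takes part in keeping heterochromatin compact and in transcription and splicing, and it is a known oncogenic fusion partner in leukaemia. In neurons, chromatin regulators of this kind bear on genes that respond to synaptic activity: a wave of immediate early transcription factors, followed by late genes that code for secreted peptides, synaptic proteins and growth factors.

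Library totals lay between 17078551 and 18933382 estimated counts, and pairs of libraries of the same group correlated at r = 0.992 to 0.996 on log2 CPM (counts relative to the TMM-scaled size of the library), against 0.993 to 0.994 for pairs across groups. Of the 10946 genes with a mean of at least 5 CPM, between 54 and 423 differed by more than 0.5 log2 units between any 2 libraries, and the most differing pair was overexpression replicates 2 and 3. These libraries also lay at the ends of the first principal component, at −17.3 and 20.03, which took 27.2% of the variance. Neuronal markers were abundant, with the 14 pan-neuronal markers summing to 8680 to 9150 CPM in the empty vector and 9040 to 9090 CPM in the Dek cDNA libraries. Astrocyte markers summed to 430 to 557 CPM and 512 to 542 CPM, and 8 of 10 microglial markers had a mean under 1 CPM.

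Dek itself (Entrez gene on chromosome 13, 47084767 to 47107530, GRCm38) checked the labels. It stood at 35.7, 38.3 and 40.6 CPM in the empty vector libraries and at 154, 128 and 142 CPM in the Dek cDNA libraries. The groups did not overlap, and overexpression replicate 2 had the least Dek of its group. The mean rose from 38.2 ± 2.49 to 141 ± 13.4 CPM (SD, n = 3 per group), a log2FC of 1.89 with a 95% interval of 1.72 to 2.05 (SE 0.08, adjusted p = 1.36e-08 by the edgeR quasi-likelihood test). The log2FC is the log2 ratio of Dek cDNA to empty vector, 3.70-fold here. Reads from the virus and from the chromosomal gene cannot be told apart in a count per gene.

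Dek was the 1 gene of 14089 to pass an adjusted p below 0.05, or 0.00710% of genes tested. The next smallest adjusted p was 0.42. At an unadjusted p below 0.05 stood 930 genes, or 6.60%, of which 519 were lower (3.68%) and 411 higher (2.92%) with Dek cDNA. Among them, 194 were below 0.01 and 20 below 0.001. DESeq2 called 4 genes in place of 1, namely Dek, the neuropeptide Cck, the Wnt inhibitor Wif1 and the synaptic pentraxin Nptx2. The 3 Dek cDNA libraries lay below all 3 controls in 755 genes (5.36%) and above them in 887 (6.30%), and 49.4% of genes had a log2FC below 0. In the rest of the text "lower" and "higher" with no adjusted p describe fitted values and are no calls.

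**Figure D1:**
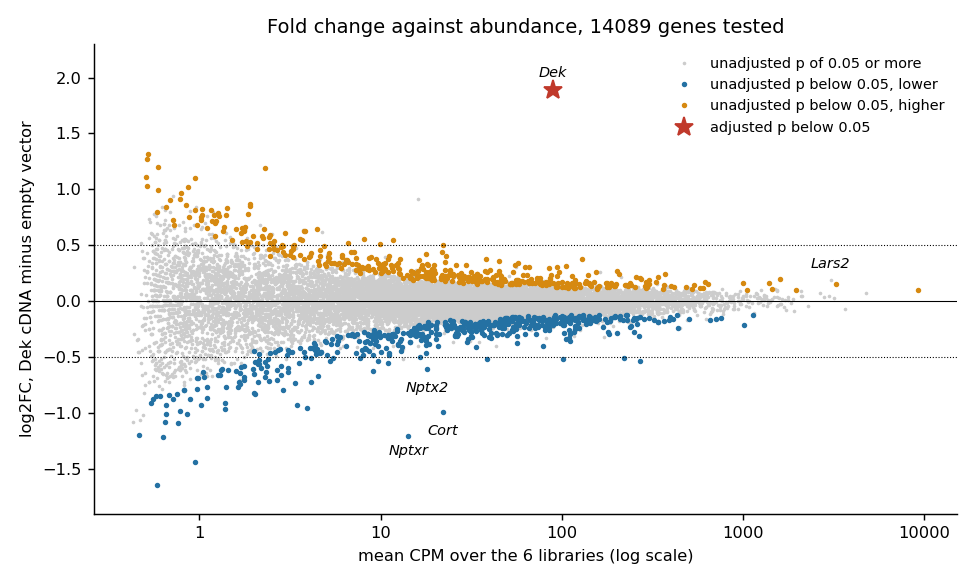
Log2FC (Dek cDNA minus empty vector, vertical axis) against mean CPM over 6 libraries (horizontal, log scale) for 14089 genes, with genes at an unadjusted p below 0.05 in blue (519 lower) or orange (411 higher) and dotted lines at 0.5 log2 units either side of 0. Dek at 1.89 is the 1 gene past an adjusted p below 0.05 (star), and the cloud narrows from left to right.

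The intervals bounded the size of most effects. The log2FC had a median of 0.0018 and an SD of 0.18 over all genes, with 90% of genes inside −0.28 to 0.27. For 10845 genes (77.0%) the whole 95% interval lay within 0.5 log2 units of no change, and for 13294 genes (94.4%) within 1 unit. These intervals are per gene and not adjusted for the number of genes.

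The bound depended on abundance. Among 2536 genes above 100 CPM the interval reached a median of 0.13 log2 units to either side, and 98.9% of genes lay within 0.5 units. Among 5288 genes at 20 to 100 CPM the reach was 0.16 units, with 98.5% within, and among 3122 genes at 5 to 20 CPM it was 0.25 units, with 86.1% within. Under 5 CPM, 3143 genes had a reach of 0.55 units, and 13.9% lay within 0.5 units, so that a change by 0.5 units was not excluded in most of them. Of the 10946 genes with at least 5 CPM, 21 had a fitted log2FC beyond 0.5 and 2 beyond 1, which were Dek and Nptxr.

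Nptxr, the neuronal pentraxin receptor that helps gather AMPA receptors at synapses, stood at 21.9, 19.9 and 17.8 CPM with the empty vector and at 10.3, 12.7 and 2.73 CPM with Dek cDNA. All 3 Dek cDNA libraries were below all controls, but overexpression replicate 3 was far below the other two. The log2FC was −1.21 with an interval of −2.35 to −0.07 (SE 0.46, adjusted p = 0.74). Without overexpression replicate 3 it was −0.79 and passed, at an adjusted p of 0.032.

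Several genes that the study discusses after Dek silencing had tight bounds with Dek cDNA. For tau the study reported more protein after silencing and no difference in mRNA by RT-qPCR, whereas the values here are mRNA by sequencing. The silencing libraries of this series had a tau mRNA log2 ratio to the scrambled hairpin of 0.12 (SE 0.05, adjusted p = 0.041 by the edgeR quasi-likelihood test). Mapt, which encodes tau, had 1703, 1657 and 1753 CPM with the empty vector and 1748, 1712 and 1698 CPM with Dek cDNA, a log2FC of 0.01 with an interval of −0.08 to 0.11 (SE 0.04). The AMPA receptor subunits were as close: Gria1 was at −0.01 with an interval of −0.11 to 0.10. Gria2 was at 0.05, with an interval of −0.08 to 0.17. Gria3 was at 0.03, between −0.13 and 0.19, and Gria4 at −0.01, between −0.15 and 0.12. Egr1, an immediate early transcription factor, was less well bounded. It stood at 94.0, 72.9 and 57.4 CPM in the controls and at 73.9, 92.5 and 87.7 CPM with Dek cDNA, a log2FC of 0.18 with an interval of −0.24 to 0.60 (SE 0.18, adjusted p = 0.91), and the groups overlapped.

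Genes that responded to the Dek-silencing hairpin gave a further set of bounds, taken from libraries that the cDNA comparison did not use. In silencing 7790 of 14232 genes (54.7%) were called. Of the genes called lower there, 4055 were tested with Dek cDNA; their median log2FC was 0.011, 125 were lower and 146 higher at an unadjusted p below 0.05, and 93.1% had an interval within 0.5 units. The 3583 genes called higher in silencing had a median of −0.010, with 145 lower, 85 higher and 78.3% within 0.5 units. Of the 704 genes lower by over 1 log2 unit in silencing, 80.8% lay within 0.5 units with Dek cDNA. Of the 647 higher by over 1 unit, 38.9% lay within 0.5 units and 82.8% within 1 unit. For comparison, of all 14089 genes tested 3.68% were lower and 2.92% higher at an unadjusted p below 0.05. Of the same genes 77.0% lay within 0.5 units and 94.4% within 1 unit.

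Among genes of at least 5 CPM whose groups did not overlap, those with the smallest p in each direction differed by small amounts. Iqsec3, a guanine exchange factor of inhibitory synapses, had 112, 110 and 115 CPM with the empty vector and 93.3, 91.7 and 92.4 CPM with Dek cDNA. The gap between the groups exceeded the range within either. The log2FC was −0.28 (SE 0.05, adjusted p = 0.42), a decrease of 17.7% that missed the threshold over all genes.

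Nptx2, a pentraxin secreted at excitatory synapses on interneurons, had 18.7, 21.0 and 25.7 CPM with the empty vector and 15.9, 14.1 and 12.8 CPM with Dek cDNA, a log2FC of −0.61 (SE 0.12, adjusted p = 0.42). Cck, the neuropeptide cholecystokinin, had 120, 127 and 125 CPM against 99.8, 106 and 86.7 CPM, a log2FC of −0.35 (SE 0.07, adjusted p = 0.42). Neither gene had an overlap between groups, and over all alternatives the log2FC of Nptx2 lay between −0.71 and −0.47 and that of Cck between −0.41 and −0.27. Among genes with a mean under 5 CPM, 2 also had an adjusted p of 0.42, A930003O13Rik at −0.95 (SE 0.19) and Cav1, which encodes caveolin 1, at 1.19 (SE 0.24). Hunk, a kinase related to SNF1, was at −0.37 (SE 0.08), and Git1, a scaffold of the postsynapse, at −0.27 (SE 0.06). Wif1, a secreted Wnt antagonist, was at −0.52 (SE 0.11), with 36.1, 48.8 and 52.7 CPM against 30.8, 31.9 and 33.2 CPM. Ttbk1, a kinase that phosphorylates tau, was at −0.24 (SE 0.05), Dot1l, a methyltransferase of histone H3, at −0.28 (SE 0.07) and Chrna7, a nicotinic receptor subunit, at −0.36 (SE 0.09).

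In the other direction Lrrc17 led, with 18.8, 17.8 and 19.1 CPM in the empty vector and 23.6, 26.9 and 24.9 CPM in the Dek cDNA libraries, a log2FC of 0.44 (SE 0.08, adjusted p = 0.42). Cpne4, a calcium-dependent membrane-binding copine, had 36.6, 31.1 and 31.9 CPM against 40.8, 46.7 and 41.9 CPM, a log2FC of 0.38 (SE 0.08, adjusted p = 0.57). All 3 Dek cDNA libraries were above all controls for both genes. Dbpht2 was at 0.50 (SE 0.11) and Smim17 at 0.55 (SE 0.13). The adhesion protein Cd24a was at 0.27 (SE 0.06), and the actin-associated Enc1 at 0.24 (SE 0.06). Calb1, the calcium buffer calbindin of layer II and interneurons, was at 0.31 (SE 0.08), the transcription factor Rfx3 at 0.33 (SE 0.08) and the actin regulator Wasf1 at 0.22 (SE 0.06). Of these 2 sets of genes, 0 passed the edgeR test over all genes.

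**Figure D2:**
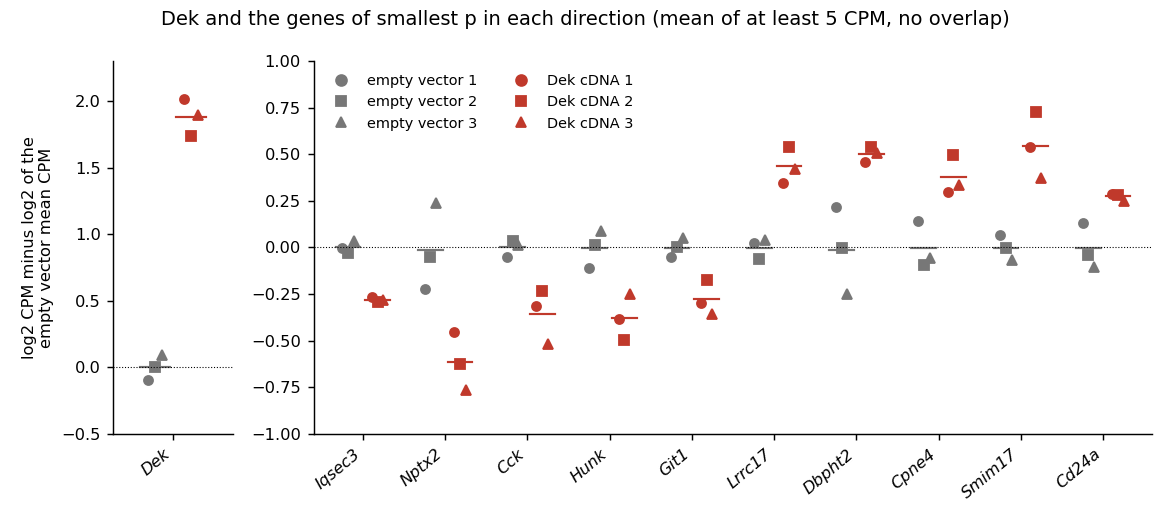
Log2 CPM of each library minus the log2 of the mean empty vector CPM (vertical axis) for Dek (left) and for the 5 genes with the smallest p in each direction among those of at least 5 CPM and no overlap (right, on a narrower scale), with the empty vector in grey, Dek cDNA in red and short lines for group means. Dek lies near 1.89, and the other genes differ by at most 0.61 on the log2 scale.

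Genes were then grouped by function. Each list below is described by how many members were lower or higher at an unadjusted p below 0.05, against 3.68% and 2.92% of all genes, and by its median log2FC, against 0.0018. A list's level in a library is the mean over its members of log2 CPM less the gene's own mean over the 6 libraries. Members of a list are not independent of each other.

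Late activity-regulated genes, which synapse-to-nucleus signalling switches on hours after the immediate early genes, lay lower. Of 41 members tested, 15 (36.6%) were lower and 0 higher, 40 had a log2FC below 0, and the median was −0.16. The level in the libraries was −0.03, 0.14 and 0.20 with the empty vector and −0.08, −0.14 and −0.09 with Dek cDNA. The groups did not overlap, but empty vector replicate 1 was closer to the Dek cDNA libraries than to its own group.

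Nptx2 (above) led the late genes. Adcyap1, the neuropeptide PACAP, had 106, 129 and 133 CPM in the controls and 100, 98.0 and 101 CPM with Dek cDNA, a log2FC of −0.29 (SE 0.08, adjusted p = 0.64). Rasgrp1, an activator of Ras, had 31.2, 35.6 and 36.9 CPM against 28.1, 28.99 and 28.5 CPM, a log2FC of −0.28 (SE 0.08, adjusted p = 0.64). Both were lower in every Dek cDNA library, and in both empty vector replicate 1 was the lowest control. Scg2, the secretory granule protein secretogranin II, was abundant, at 1006, 1102 and 1157 CPM against 931, 871 and 1012 CPM, and its groups overlapped by 1 library (log2FC −0.21, SE 0.06, adjusted p = 0.64). Acan, the aggrecan core protein of perineuronal nets, was at −0.52 (SE 0.18) and at −0.70 without empty vector replicate 1, when it passed (adjusted p = 0.022).

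Among 41 genes of the immediate early class, 12 stood lower (29.3%) and 2 above control, for a median of −0.11. The level was 0.07, 0.12 and −0.03 with the empty vector and −0.08, 0.03 and −0.11 with Dek cDNA, so the groups overlapped. Ppp1r15a, a phosphatase subunit that restores translation after stress, had 68.2, 69.0 and 70.9 CPM against 62.3, 53.2 and 53.7 CPM, a log2FC of −0.30 (SE 0.07, adjusted p = 0.62). Per1, a clock gene that CREB induces, was at −0.21 (SE 0.06), Maff, a small MAF factor, at −0.48 (SE 0.14) and the AP-1 factor Fosl2 at −0.28 (SE 0.09). The list did not lean one way throughout: Egr3 had 22.3, 21.2 and 16.7 CPM against 25.4, 27.2 and 24.2 CPM, a log2FC of 0.35 (SE 0.11, adjusted p = 0.64), and Klf10 was at 0.25 (SE 0.12).

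Of 31 neuropeptide and peptide-processing genes, 13 (41.9%) were lower and 1 higher, and the median was −0.21. The level was 0.05, 0.16 and 0.16 with the empty vector and −0.09, −0.05 and −0.23 with Dek cDNA, with no overlap and with overexpression replicate 3 the lowest. The list shares 6 genes, or 19.4% of its own and 14.6% of theirs, with the late genes (Adcyap1, Crh, Ostn, Pcsk1, Scg2 and Vgf) and 5 genes, or 16.1% of its own and 11.6% of theirs, with the GABAergic identity genes described below (Npy, Nxph1, Sst, Tac1 and Vip), all named for the overlap. Cort, or cortistatin, had 26.2, 31.5 and 30.8 CPM against 14.4, 21.1 and 8.98 CPM, a log2FC of −0.99 with an interval of −1.63 to −0.35 (SE 0.27, adjusted p = 0.69). Without overexpression replicate 2 it was −1.33 and passed (adjusted p = 0.041). Pnoc, which encodes nociceptin, was at −0.34 (SE 0.09), and Pthlh, a parathyroid hormone-related peptide, at −0.53 (SE 0.15). The prohormone convertase Pcsk2 was the 1 member higher at that p, at 0.24 (SE 0.10), and 4 others had a log2FC above 0.

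The integrated stress and unfolded protein responses are pathways by which cells slow translation and make more amino acid transporters, biosynthetic enzymes and chaperones. Of 53 genes tested, 14 (26.4%) were lower and 0 higher, 46 had a log2FC below 0, and the median was −0.09. The level was 0.03, 0.06 and 0.07 with the empty vector and −0.01, −0.07 and −0.08 with Dek cDNA, and the groups did not overlap. Slc7a3, a cationic amino acid transporter, had 75.03, 92.5 and 102 CPM against 72.6, 66.6 and 64.7 CPM, a log2FC of −0.40 (SE 0.10, adjusted p = 0.62). Chac1, a glutathione-degrading enzyme, had 46.1, 45.1 and 43.2 CPM against 39.8, 35.6 and 34.8 CPM, a log2FC of −0.28 (SE 0.07, adjusted p = 0.64). Every Dek cDNA library was below every control for both genes. The serine and glycine genes Shmt2 (−0.25, SE 0.07) and Slc6a9 (−0.24, SE 0.07) were lower as well, and Atf4, the transcription factor of the pathway, was at −0.16 (SE 0.06). The endoplasmic reticulum chaperone Hspa5, named after its value was seen, was at −0.05 (SE 0.05).

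**Figure D3:**
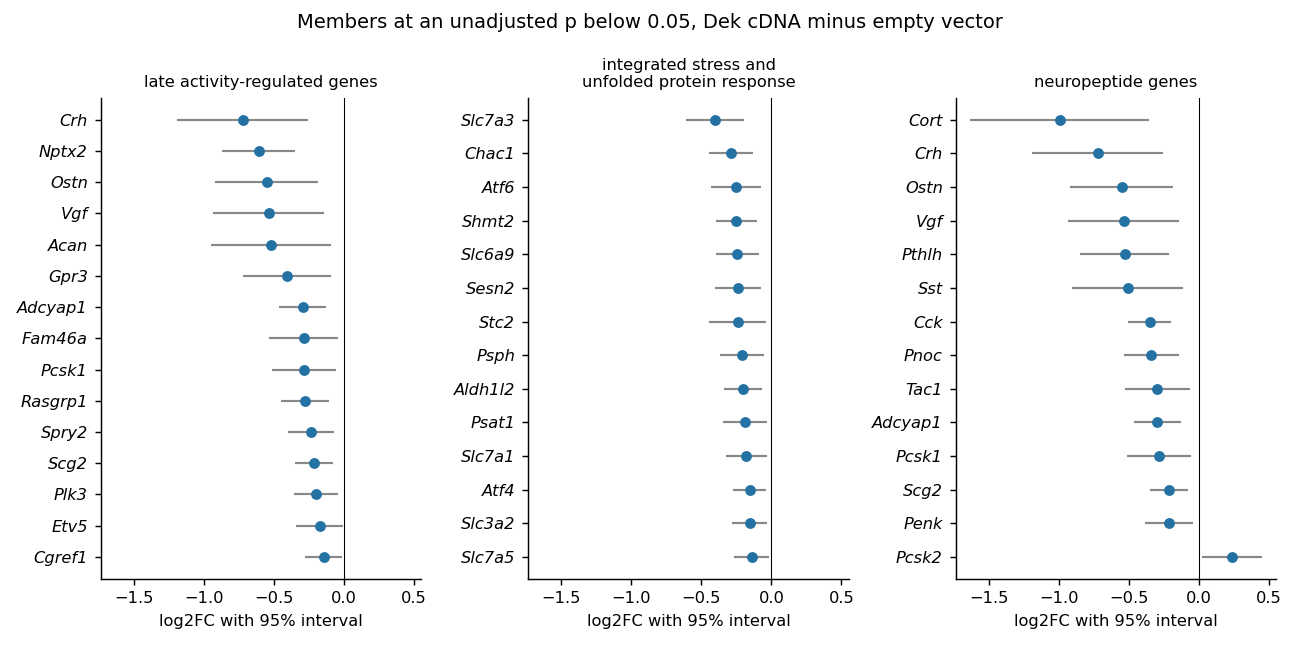
Log2FC (Dek cDNA minus empty vector, horizontal axis) with 95% intervals for the members of 3 lists at an unadjusted p below 0.05, shown because of that p: 15 late activity-regulated genes, 14 stress response genes and 14 neuropeptide genes. All lie below 0 but Pcsk2, and Cort is the lowest at −0.99; by construction no interval crosses 0.

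Several of these genes are classical targets of CREB or of ATF4, whose binding motifs can be read in the promoter sequence. The cyclic AMP response element (CRE) TGACGTCA, which reads the same on both strands, was sought in the RefSeq promoters of GRCm38.p6, from 250 bases before to 50 bases after each start. The windows below belong to list members that were lower at an unadjusted p below 0.05 and are shown because they carry the full element, which stands in capitals; each is given on the strand of its gene.

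Scg2, chr1:79440076-79440105, minus strand: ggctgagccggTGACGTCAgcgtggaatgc
Pcsk1, chr13:75089768-75089797, plus strand: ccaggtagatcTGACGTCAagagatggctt
Sst, chr16:23890874-23890903, minus strand: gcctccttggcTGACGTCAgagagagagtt
Ppp1r15a, chr7:45526262-45526291, minus strand: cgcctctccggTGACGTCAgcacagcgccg
Maff, chr15:79347480-79347509, plus strand: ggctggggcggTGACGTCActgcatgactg

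The element began 12 to 78 bases before the start in these genes. It was present in 3.00% of 14313 promoters of the genes tested and in 1.79% of all 32851 promoters. Among the lower members, 2 of 15 late promoters, 2 of 17 immediate early promoters, 3 of 9 neuropeptide promoters and 0 of 14 stress promoters held it. These are counts of promoters, of which a gene may have several or none. They came from 11 of 15 late, 11 of 12 immediate early, 8 of 13 neuropeptide and 10 of 14 stress genes. Scg2 and Pcsk1 count in both the late and the neuropeptide list. Over whole lists, lower or not, the shares were 7.14% of 42 late, 11.6% of 43 immediate early and 18.5% of 27 neuropeptide promoters. The AP-1 site TGANTCA was sought too, and 4.88% of the promoters of the genes tested held it. Among the lower members it was in 3 of 15 late, 1 of 17 immediate early, 0 of 9 neuropeptide and 1 of 14 stress promoters. Of the 3 late promoters, 2 belonged to Cgref1 and shared the same match. An EGR site, held by 1.16% of the promoters of the genes tested, was in 1 of the 17 immediate early promoters and in none of the others. A match describes letters only.

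The element TGATGNAA, to which ATF4 and C/EBP factors bind together, was sought on both strands. Chac1 held it in reverse, as did Atf3 and Gadd45g, which like Pcsk1 were named after their values were seen.

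Chac1, chr2:119351038-119351067, plus strand: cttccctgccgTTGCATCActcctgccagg
Atf3, chr1:191183425-191183454, minus strand: ccttctcgcacTTGCATCAccaagtccgcg
Gadd45g, chr13:51846563-51846592, plus strand: tgccgcctcatTTGCATCAgaaagcgggcg

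It was present in 2.24% of the promoters of the genes tested, in 19.6% of 51 promoters of the stress list and in 1 of 14 promoters of its lower members. Atf3 and Gadd45g belong to the immediate early list, where 4.65% of 43 promoters and 2 of 17 promoters of lower members held the element. Atf3 had a log2FC of −0.54 (SE 0.19) with overlapping groups, and Gadd45g of −0.28 (SE 0.11).

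The lists of inhibitory and excitatory cell identity had medians of opposite sign. Of 43 GABAergic identity genes, 6 were lower and 2 higher (median −0.07), and the 10 GABAergic markers summed to 2290 to 2340 CPM with the empty vector and 2050 to 2090 CPM with Dek cDNA, without overlap. All 10 markers had a log2FC below 0, 3 of them at an unadjusted p below 0.05. Lhx6 (−0.01, SE 0.07) and Dlx6 (−0.02, SE 0.12) were close to no change. Sst, the interneuron peptide somatostatin whose promoter stands above, had 271, 264 and 240 CPM against 182, 226 and 138 CPM, a log2FC of −0.51 (SE 0.17, adjusted p = 0.69).

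Slc32a1, the vesicular transporter of GABA, had 198, 206 and 202 CPM against 175, 186 and 133 CPM, a log2FC of −0.30 (SE 0.10, adjusted p = 0.69). In both Sst and Slc32a1 overexpression replicate 3 was the lowest library. Gad1, which makes GABA, was at −0.13 with an interval of −0.23 to −0.02, and Gad2 at −0.06 with an interval of −0.19 to 0.06. The calcium buffers of interneurons, Calb1 (0.31, SE 0.08) and Calb2 (0.24, SE 0.08), lay on the other side. Fewer GABAergic cells and less RNA per cell cannot be told apart in these samples.

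Of 38 excitatory identity genes, 7 (18.4%) were higher and 2 lower, with a median of 0.05, and the list's level overlapped between groups. Met, a receptor kinase of projection neurons, had 134, 109 and 95.6 CPM against 151, 136 and 155 CPM, a log2FC of 0.38 (SE 0.10, adjusted p = 0.64). Ldb2, a cofactor of LIM transcription factors, was at 0.55 (SE 0.16) and Bhlhe22, a transcription factor of cortical projection neurons, at 0.23 (SE 0.07). In each of these genes empty vector replicate 3 was the lowest control. The 8 excitatory markers summed to 755 to 887 CPM with the empty vector and 862 to 886 CPM with Dek cDNA.

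Markers of other cell types were present too, and their sums give no number of cells. Fibroblast and meningeal markers summed to 20.7 to 33.0 CPM with the empty vector and 38.5 to 42.0 CPM with Dek cDNA, without overlap, while the list's level overlapped between groups. Pdgfra, which is also a marker of oligodendrocyte precursors and had the highest mean of the list, had 17.1, 10.9 and 5.66 CPM against 16.5, 21.4 and 25.4 CPM (log2FC 0.91, SE 0.38, adjusted p = 0.76). Its groups overlapped, and the collagen genes of the list had a log2FC below 0, with Col1a1 at −0.45 (SE 0.37), Col1a2 at −0.24 (SE 0.33) and Col3a1 at −0.06 (SE 0.58). Microglial markers summed to 18.89 to 19.18 CPM and 20.35 to 27.11 CPM, without overlap. Astrocyte, oligodendrocyte, precursor, endothelial, radial glial, proliferation, Cajal-Retzius and erythrocyte marker sums overlapped between groups. The part of these cells in the neuronal results was not tested.

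Partners of DEK and histone chaperones were narrowly bounded. Of 43 genes, with Dek itself counted, 1 was lower and 4 higher, the median was 0.04, and 40 had an interval within 0.5 units. The level was −0.08, −0.01 and −0.05 with the empty vector and 0.04, 0.01 and 0.07 with Dek cDNA, without overlap. This mean includes Dek, whose own log2FC of 1.89 moves the groups apart, so the separation does not describe the partners alone. Hdac2, a histone deacetylase, had 135, 135 and 132 CPM against 142, 150 and 159 CPM, a log2FC of 0.17 (SE 0.06, adjusted p = 0.69), and Anp32a, a histone-binding inhibitor of acetylation, was at 0.16 (SE 0.05). The H3.3 chaperone Daxx was at −0.02 with an interval of −0.22 to 0.18, and was named after its value was seen.

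From genes at a nominal p, the study's Ingenuity analysis reported changes in long-term potentiation, microtubule dynamics and neuron development. The lists below were assembled separately and are not the study's gene sets. Members of the potentiation and microtubule lists went in both directions. Of 62 long-term potentiation (LTP) signalling genes, 4 (6.45%) were lower and 8 (12.9%) higher, the median was 0.02, and all 62 had an interval within 1 log2 unit. Camk2n1, an inhibitor of CaM kinase II, had 37.1, 36.9 and 34.9 CPM against 43.6, 47.4 and 41.0 CPM, a log2FC of 0.28 (SE 0.07, adjusted p = 0.64). The calcineurin subunit Ppp3ca was at 0.17 (SE 0.05), and the kinase Camkk2 at 0.17 (SE 0.06). On the other side, the NMDA receptor subunit Grin2b was at −0.38 (SE 0.14) and Grin1 at −0.14 (SE 0.05).

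Of 82 microtubule genes, 3 (3.66%) were lower and 6 (7.32%) higher, with a median of −0.01 and 78 intervals within 0.5 units. Stmn1, a destabiliser of microtubules, had 1596, 1465 and 1455 CPM against 1661, 1806 and 1704 CPM, a log2FC of 0.20 (SE 0.05, adjusted p = 0.64), and Tubb5, a beta-tubulin, was at 0.17 (SE 0.06). Of 67 axon guidance and outgrowth genes, 4 were lower and 6 higher, with Cd24a, Enc1 and Wasf1 (above) leading the higher ones and the guidance cue Slit1 at −0.17 (SE 0.06). Of 35 tau and amyloid genes 3 were lower and 0 higher, and 34 intervals lay within 0.5 units, with Ttbk1 (above) among the lower ones.

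Receptor and channel lists held a few members on one side. Of 24 NMDA, kainate and metabotropic receptor genes 6 were lower and 0 higher, while the median was 0.02. Grm2, a presynaptic glutamate receptor, had 41.5, 38.1 and 37.6 CPM against 32.8, 36.9 and 28.3 CPM, a log2FC of −0.26 (SE 0.09, adjusted p = 0.69), without overlap. Of 42 postsynaptic scaffold and adhesion genes 6 (14.3%) were lower and 0 higher, led by Iqsec3 and Git1, with a median of −0.03. Of 29 AMPA receptor and auxiliary genes 4 were lower, among them Nptxr, Nptx2 and the stargazin relative Cacng5 (−0.26, SE 0.08), and 1 was higher. Of 21 circadian clock genes 4 (19.0%) were lower, with Npas2 at −0.35 (SE 0.09).

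Further lists had few members at this p. Synaptic vesicle genes had 2 lower and 1 higher of 54, sodium and calcium channels 0 and 1 of 25, potassium and HCN channels 5 and 2 of 52, and GABA receptors 2 and 1 of 22. Entorhinal layer II and reelin genes had 1 and 3 of 21, heat shock proteins 1 and 0 of 31, lysosome and autophagy genes 3 and 2 of 54, and cholesterol genes 0 and 1 of 34. Interferon and MHC class I genes had 2 and 1 of 26, and respiratory chain genes 1 and 0 of 70. Among 28 p53 targets 2 were lower and 4 higher, with the pro-apoptotic Hrk at 0.33 (SE 0.09) and Apaf1 at 0.22 (SE 0.07). Of 79 ribosomal protein genes 5 (6.33%) were higher and 0 lower, with a median of 0.06, which was between 0.00 and 0.09 when each library was left out in turn.

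GC content moved with the comparison and with single libraries. The log2FC of 13514 genes had a Spearman correlation of −0.24 with transcript GC content, across genes of the same 6 libraries. In the 20% of genes with the highest GC content the median log2FC was −0.05, with 209 lower and 35 higher at an unadjusted p below 0.05, and in the 20% with the lowest it was 0.04, with 46 and 126. The gap between these groups of genes was 0.11, 0.01 and 0.01 log2 units in the empty vector and −0.06, 0.15 and −0.22 in the Dek cDNA libraries, with overexpression replicates 2 and 3 farthest apart.

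With GC content and transcript length corrected in each library, 647 genes were lower (4.79%) and 599 higher (4.43%) at an unadjusted p below 0.05, and Cck passed beside Dek (log2FC −0.33, SE 0.05, adjusted p = 0.0072). The late list then had 16 lower and 0 higher (median −0.15), the stress list 17 and 0 (−0.10), the neuropeptide list 16 and 0 (−0.23), the immediate early list 10 and 1 (−0.07) and the GABAergic list 10 and 2 (−0.08). The counts of other lists moved as well: axon guidance genes had 5 lower and 14 higher (median from 0.00 to 0.05), microtubule genes 7 and 10, respiratory chain genes 9 and 1, sodium and calcium channels 2 and 5, ribosomal protein genes 0 and 13, and cholesterol genes 0 and 3. In a fit of all 12 libraries the lower counts were 4 late, 2 immediate early, 2 stress, 4 neuropeptide and 3 GABAergic genes, against 2.87% of all genes in that fit. They were 9 late genes and 9 stress genes without empty vector replicate 3 (2.62% of all genes lower), and 5 immediate early, 8 stress and 3 GABAergic genes without empty vector replicate 2 (1.97%). Of the immediate early genes 43.9% belonged to the 20% with the highest GC content, and of the late genes 14.6%.

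**Figure D4:**
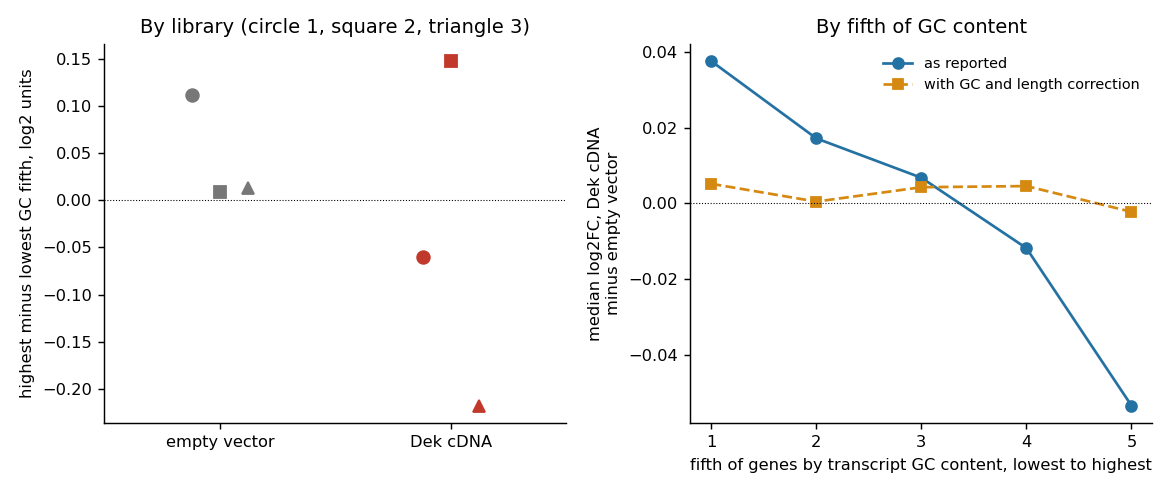
Left, the difference in log2 units between the genes of highest and of lowest GC content (20% each) in each library, relative to the mean of 6 libraries. Right, median log2FC by group of GC content before (blue) and after (orange) correction. Overexpression replicates 2 and 3 lie farthest apart, at 0.15 and −0.22, and the slope from 0.04 to −0.05 is flat after correction.

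Overexpression replicate 2 also had the most reads of Lars2, a mitochondrial leucyl-tRNA synthetase gene, with 2964, 2983 and 2619 CPM in the empty vector libraries and 2214, 5372 and 2207 CPM in the Dek cDNA libraries. The log2FC was 0.19 with an interval of −0.98 to 1.37 (SE 0.43, adjusted p = 0.96). Without that library Lars2 was at −0.37 and passed (adjusted p = 0.017). The number of genes at an unadjusted p below 0.05 was most sensitive to the same library: without it 1111 were lower and 698 higher, against 281 and 223 without empty vector replicate 2.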

How the data were processed

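RNA from 12 wells of EC neurons was sequenced (TruSeq kit, NextSeq 500). The 6 wells with hairpin viruses served only for the silencing values. The deposited table holds estimated counts per gene. For it the submitters' notes list Salmon with mm10, whereas the article describes fastp and STAR 2.7.1a. Estimates may split reads between near-identical genes. They were rounded (38.9% of values were not whole).

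Genes kept by filterByExpr were scaled by TMM and tested in edgeR 4.0.16 (R 4.3.3; quasi-likelihood, robust), 3 libraries against 3, with Benjamini-Hochberg adjustment over 14089 genes. The 95% intervals used the SE and degrees of freedom of the fit, whose common biological coefficient of variation was 0.064. Alternatives were DESeq2 1.42.0 (size factors, Wald test), limma-voom (limma 3.58.1), library size scaling, no filter, at least 5 CPM in 3 libraries, all 12 libraries, the replicate block, GC and length correction (GENCODE vM21, 95.9% of genes) and each library left out.

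The comparison and the lists were chosen with earlier results of these data known. Named genes are Dek, the 15 of smallest p per direction (at least 5 CPM, no overlap), any gene called in any fit, the 4 of smallest p per direction in each list (any in lists of at most 14), Egr1, Mapt and Gria1 to Gria4. Others, those in the plot of intervals among them, were named after their values were seen. A few members of the lists are not reported by name.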

Additional observations from a re-analysis of the deposited data

How the results depend on the processing

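Dek passed in all 15 alternatives run, at 1.81 to 1.95. The count of genes called was 4 with the DESeq2 Wald test, 2 with GC and length correction, 7 without a filter on low counts, 1 with the replicate block, and 1 to 7 with each library left out. The genes beside Dek were Cav1, Cck, Hunk, Nptx2, A930003O13Rik and Dbpht2 without the filter, Adcyap1, Acan, Aldoc, Slc7a3, Wif1 and Atp2b4 without empty vector replicate 1, Cck, Cort, Lars2, Git1 and Cbarp without overexpression replicate 2, and Nptxr without overexpression replicate 3. At an unadjusted p below 0.05, 281 to 1111 genes were lower and 223 to 698 higher with each library left out, and 223 were higher by the DESeq2 Wald test. Lars2 went from 0.19 to −0.37 without overexpression replicate 2, the lowest of a range up to 0.41 without overexpression replicate 3.

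With all 12 libraries in one fit the lower counts were 4 late activity-regulated, 2 immediate early, 2 stress, 4 neuropeptide and 3 GABAergic identity genes, with 419 genes (2.87%) lower in all. With each library left out they were 9 to 18, 5 to 9, 8 to 18, 12 to 15 and 3 to 8; without empty vector replicate 2 the immediate early count was 5 and the GABAergic 3. With GC and length correction the GABAergic count was 10. The higher count of immediate early genes was 1 in place of 2 with the DESeq2 test, DESeq2 size factors, limma-voom, no filter, GC and length correction, all 12 libraries and the replicate block, and 1 to 2 with a library left out. That of neuropeptide genes was 0 in place of 1 with no filter and with GC and length correction, and 0 to 1 with a library left out, as for late genes, and that of GABAergic genes 1 to 4.

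With GC and length correction the median log2FC was 0.013 for tau and amyloid genes, 0.050 for axon guidance and −0.0027 for potassium channels. With each library left out, medians ran from −0.0059 to 0.051 for axon guidance, −0.11 to 0.022 for interferon genes, −0.046 to 0.0075 for clock genes, −0.18 to −0.070 for immediate early genes, −0.048 to 0.043 for NMDA and metabotropic receptors, −0.033 to 0.16 for oligodendrocyte and −0.14 to 0.27 for endothelial markers, −0.039 to 0.0053 for postsynaptic genes and 0.0037 to 0.055 for p53 targets. The cause of these shifts was not tested. Medians of the late, stress, neuropeptide and GABAergic lists stayed below 0 throughout.

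Replicate numbers did not pair the wells: the deviations of same-numbered libraries correlated at −0.03, −0.07 and −0.01, so the block is given here only. Depth bounds genes under 5 CPM least, and 3 wells per group leave differences of about 0.1 log2 units in abundant genes within the error.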
